A study of Mus musculus with 12 samples.

Results

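The cytosolic ribosomal protein genes were taken as the rows of the count files whose symbol starts with Rpl or Rps followed by a digit, or is Rplp0, Rplp1, Rplp2 or Rpsa. Of 103 such symbols, 10 Rps6k kinase genes and 6 pseudogenes were dropped, which left 87 of the 24147 genes in the files. By role they are 43 large subunit genes, 31 small subunit genes, 3 stalk genes, 8 paralogs of a core gene, and 2 other genes with a similar name (Rps19bp1 and Rpl7l1). They lie on 19 chromosomes.

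RNA was sequenced from the lens capsule and its attached lens epithelial cells of 2 month old mice, after the fiber cells had been removed through the cornea as in cataract surgery. Wild type (WT) mice were C57BL/6, and FNcKO mice, with a conditional knockout of fibronectin, were of mixed strain (C57BL/6, 129, FVB/N). Genotype and strain therefore cannot be told apart. The sources used here do not name the driver of the deletion. Capsules were collected at 0 h or at 48 h after fiber cell removal, with 3 libraries in each of the 4 groups, called biological triplicates by the study. The number of lenses or animals behind a library was not stated.

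Each ribosome is built from a small subunit, which reads the mRNA, and a large subunit, which joins amino acids. Every core ribosomal protein is needed in about equal number, and their mRNAs are among the most abundant in growing cells. Most of them start with a run of pyrimidines that follows a cytosine, the 5′ terminal oligopyrimidine (TOP) motif, through which mTOR and the protein LARP1 control their translation. A few core genes have paralogs, some of them used in testis or muscle, whose protein can take the place of the core protein in the ribosome. Lens fiber cells lose their organelles as they mature, whereas the cells of the epithelium keep theirs.

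The start regions of the genes that carry the paralog results below are shown here, with 3 genes that hold a TOP-like run. They come from RefSeq, build GRCm38.p6 (mm10), and each runs from 30 bases before the annotated start to 20 bases after it, on the coding strand. Capitals mark the run: a C followed by at least 4 C or T bases, beginning within 5 bases of the annotated start. Rpl22l1 lies at chr3:28805478-28805527, plus strand. The windows of Rpl22, which has 2 annotated starts, are chr4:152324406-152324455 and chr4:152325696-152325745, plus strand. Rpl36al is at chr12:69184048-69184097, minus strand, and Rpl36a at chrX:134585624-134585673, plus strand. Rpl7l1 is at chr17:46782637-46782686, minus strand. Rps6 is at chr4:86857348-86857397, minus strand, Rps2 at chr17:24720033-24720082, plus strand, and the first of 2 starts of Rps27l at chr9:66946056-66946105, plus strand.
Rps6: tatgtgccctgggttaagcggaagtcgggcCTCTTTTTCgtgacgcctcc
Rps2: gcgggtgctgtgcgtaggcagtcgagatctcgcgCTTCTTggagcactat
Rps27l: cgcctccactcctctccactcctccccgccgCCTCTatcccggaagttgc
Rpl22l1: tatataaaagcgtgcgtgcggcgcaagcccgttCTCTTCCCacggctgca
Rpl22, first start: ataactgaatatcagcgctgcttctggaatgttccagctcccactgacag
Rpl22, second start: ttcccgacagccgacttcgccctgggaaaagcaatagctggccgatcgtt
Rpl36al: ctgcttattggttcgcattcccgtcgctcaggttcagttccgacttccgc
Rpl36a: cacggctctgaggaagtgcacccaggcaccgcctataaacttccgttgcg
Rpl7l1: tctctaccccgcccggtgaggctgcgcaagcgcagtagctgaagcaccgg

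Of the 87 genes, 66 had an entry among the RefSeq promoters, with 78 starts in all. A pyrimidine run was found at 32 of the 78 starts, or 41.0%, in 30 genes. Across all 32851 promoters of the table the share was 18.3%. In this search a run began 3 bases after the annotated start of Rpl22l1, and no run was found near either annotated start of Rpl22. The search looked only close to the annotated start. Whether the mRNAs in these samples begin there was not tested. Most of these mRNAs are described above as TOP mRNAs, yet a run was found at only 41.0% of the starts. A start without a run therefore does not show that the mRNA lacks the motif. This limit also applies to the genes grouped below as without a run. Among tested genes with an entry, the median log2 change from 0 h to 48 h in WT was 0.35 in the 28 genes with a run and 0.36 in the 32 without. The corresponding medians in FNcKO were −0.16 and −0.14.

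The libraries held 8368160 to 10862573 counts each. Fn1, the targeted fibronectin gene, ranged from 15.5 to 23.1 CPM (counts per 1000000, scaled by edgeR's TMM factors) in WT at 0 h and from 8.32 to 16.8 in FNcKO at 0 h. Its range at 48 h was 528 to 1515 CPM in WT and 146 to 688 CPM in FNcKO. FNcKO 0 h replicate 3 stood apart from the other libraries, with the lowest TMM factor (0.754) and the highest share of its counts in 16 crystallin genes, the main proteins of fiber cells (24.7%). Crystallins took 12.9% to 20.2% of the counts in WT at 0 h, 1.79% to 7.43% in WT at 48 h, 13.9% to 24.7% in FNcKO at 0 h and 1.47% to 11.9% in FNcKO at 48 h. All 16 lens epithelium markers were counted in every group. Their sum ranged from 5420 to 7181 CPM in WT at 0 h and 4682 to 5863 in WT at 48 h. In FNcKO it ranged from 7843 to 8806 CPM at 0 h and 4509 to 6039 at 48 h. On this TMM scale the genotypes did not overlap at 0 h. As a share of counts they did, through FNcKO 0 h replicate 3. The sums of 9 pigment cell markers, all counted in every group, were 214 to 302, 180 to 461, 154 to 186 and 18.9 to 70.7 CPM in the same order of groups. Those of 10 vascular endothelium markers, also all counted, were 20.4 to 53.2, 56.9 to 129, 10.8 to 26.1 and 34.3 to 77.0 CPM. All 14 macrophage and monocyte markers in the files were also counted in every group, and their sum ranged from 82.0 to 183 CPM in WT at 0 h, 265 to 666 in WT at 48 h, 68.1 to 134 in FNcKO at 0 h and 189 to 410 in FNcKO at 48 h. The sum of 7 neutrophil markers ranged from 4.82 to 10.1 CPM in WT at 0 h and 61.9 to 351 CPM at 48 h, and from 3.80 to 4.73 CPM in FNcKO at 0 h and 45.3 to 120 CPM at 48 h. Retnlg, Mmp8 and Ngp were at 0 in WT at 0 h, and S100a9 and Ngp in FNcKO at 0 h. Larger than these were the sums of 14 photoreceptor markers, all counted in every group. They ranged from 2159 to 6952 CPM in WT at 0 h and 1217 to 3664 in WT at 48 h. In FNcKO they ranged from 1215 to 4374 CPM at 0 h and 320 to 3273 at 48 h. The highest, 6952 CPM, was that of WT 0 h replicate 2. The part that these shifts in cell makeup have in the results below was not tested, and in such bulk samples fewer cells of a type and less RNA per cell cannot be told apart.

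The 87 genes together took 1.63%, 1.24% and 1.23% of the counts in the 3 WT libraries at 0 h and 2.09%, 2.06% and 1.81% at 48 h. In FNcKO their share was 1.56%, 1.51% and 2.18% at 0 h and 1.58%, 1.89% and 2.53% at 48 h. All WT libraries at 48 h therefore lay above all WT libraries at 0 h, while the FNcKO times overlapped through FNcKO 0 h replicate 3. Scaled by TMM, the sums were 17734, 11847 and 12954 CPM in WT at 0 h and 17957, 18548 and 16516 CPM at 48 h, and WT 0 h replicate 1 then lay among the 48 h libraries. In FNcKO they were 16937, 16166 and 28908 CPM at 0 h and 15302, 18631 and 22373 CPM at 48 h, with FNcKO 0 h replicate 3 the highest of all 12 libraries.

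The summed counts of the Rps genes over those of the Rpl genes, paralogs and stalk genes included, were compared on a log2 scale. The ratio was −0.70, −0.73 and −0.74 in WT at 0 h and −0.54, −0.60 and −0.54 at 48 h, and −0.71, −0.68 and −0.65 in FNcKO at 0 h and −0.60, −0.55 and −0.46 at 48 h. Rpsa and Rps2 weigh heavily in it: Rpsa, which codes for a small subunit protein also known as a laminin receptor, made up 10.8% to 12.1% of the Rps counts at 0 h and 14.1% to 17.9% at 48 h. With all genes the times did not overlap in either genotype, and the ratio was 0.17 higher at 48 h in WT and 0.14 higher in FNcKO. Without Rpsa and Rps2, a choice made after seeing the data, the ratio was 0.06 higher in WT and 0.00 apart in FNcKO, where the times then overlapped. The median log2 changes over single genes lay close together, 0.32 for large and 0.35 for small subunit genes in WT and −0.19 and −0.13 in FNcKO. Rpsa itself held 784, 509 and 540 CPM in WT at 0 h and 1112, 1040 and 992 CPM at 48 h.

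**Figure D1:**
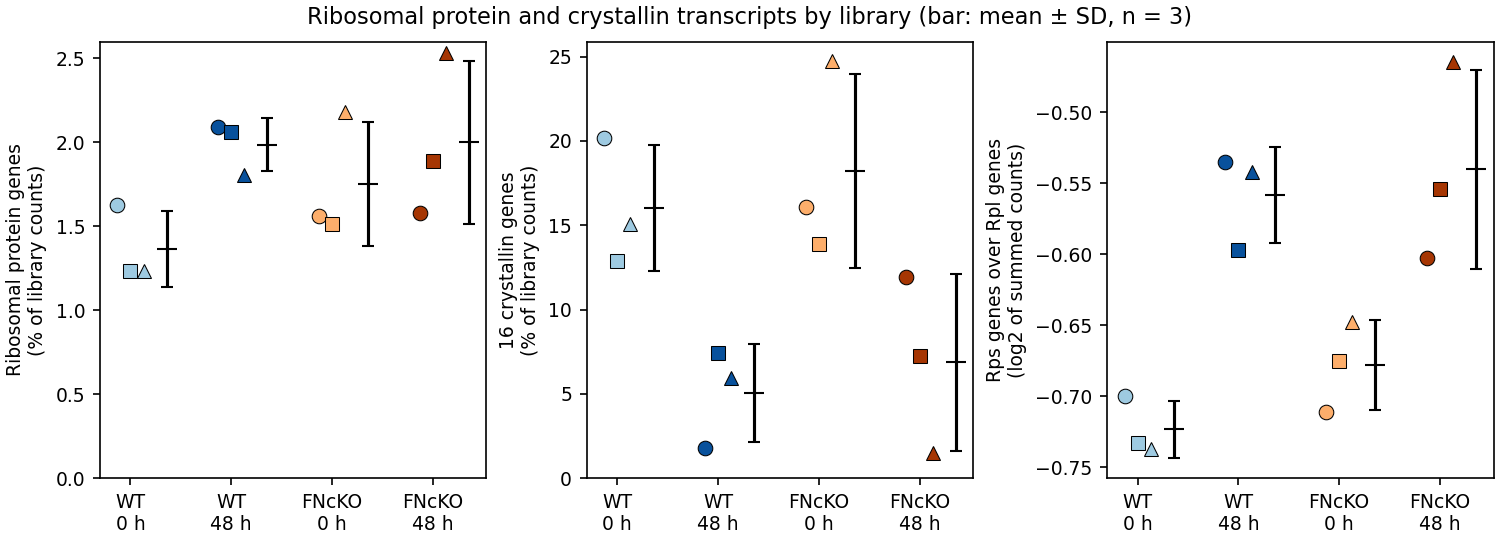
Share of library counts held by the 87 ribosomal protein genes (left) and by 16 crystallin genes (middle), and the log2 ratio of Rps to Rpl counts (right; the axis does not start at 0), for each library of the 4 groups. Circles, squares and triangles are replicates 1, 2 and 3, and bars give the mean ± SD (n = 3); FNcKO 0 h replicate 3 has the highest crystallin share, 24.7%, and the 48 h libraries have a higher Rps to Rpl ratio than the 0 h libraries, which in FNcKO does not hold without Rpsa and Rps2.

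Levels were compared between genes as CPM per kilobase of the coding length in the files, averaged over the 12 libraries. Rpl41, which codes for the shortest protein of the large subunit, was the highest at 837 CPM per kb. It was followed by Rps2 of the small subunit at 695, the stalk gene Rplp1 at 676, Rpl7 of the large subunit at 671 and the stalk gene Rplp0 at 649 CPM per kb. The third stalk gene, Rplp2, stood lower at 134 CPM per kb. The median over all 87 genes was 218 CPM per kb. Rps15a reached only 15.6 CPM per kb over a listed coding length of 5134 bases.

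Most of the paralogs were low in this tissue. Rpl10l, a retrogene paralog of Rpl10 used in male germ cells, had 0 counts in all 12 libraries, where 3 counts, the most that a count of 0 allows, would be 0.286 to 0.430 CPM in a single library. Rpl3l, the striated muscle paralog of Rpl3, had 3 counts in all 12 libraries together. Rpl39l, a testis paralog of Rpl39, had 14. Rps4l was counted more often, at 9.74 CPM per kb, and Rpl22l1 had 15.9, Rps27l 39.1 and Rpl36al 77.3 CPM per kb. The core genes Rpl22 and Rpl36a had 46.3 and 126 CPM per kb.

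Some of the lowest values belong to core genes that every ribosome needs. Rpl26 had 0 counts in all 12 libraries, Rpl30 had 29 counts in total, Rps27 had 37 and Rpl34 had 153. Each of these 4 genes shares at least 90% of its span, in both directions, with another entry of the files: Rpl26 with Gm15772, Rpl30 with Gm12191, Rpl34 with Rpl34-ps1 and Rps27 with Rps27rt. Of the other entries, Gm15772, Rpl34-ps1 and Rps27rt had 0 counts, and Gm12191 had 145, more than Rpl30 itself. Of the 82 genes without such an overlap, 4 had fewer than 1000 counts in total (Rpl10l, Rpl3l, Rpl39l and Rpl22l1), and none of these codes for a core protein. The sources used here do not say how reads in overlapping entries were counted, so these low counts are no measure of expression. Shared sequence was common also among well counted genes: of all 50-base windows in the GENCODE vM21 transcripts of a gene, a median of 35.8% over 86 genes occurred in a transcript of another gene as well. The highest share, 95.1%, was that of Rpl35, which had 16321 counts. Values of single genes, paralogs in particular (58.9% shared for Rpl22l1, 5.16% for Rpl22), are uncertain to the extent that such reads were moved or dropped. The same limit applies to the ratios of the other pairs below. The share was 22.1% for Rpl36al and 85.5% for Rpl36a, and 7.48% for Rpl7l1 and 49.3% for Rpl7. It was 72.2% for Rps4x, and Rps4l had no coding transcript under that symbol.

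**Figure D2:**
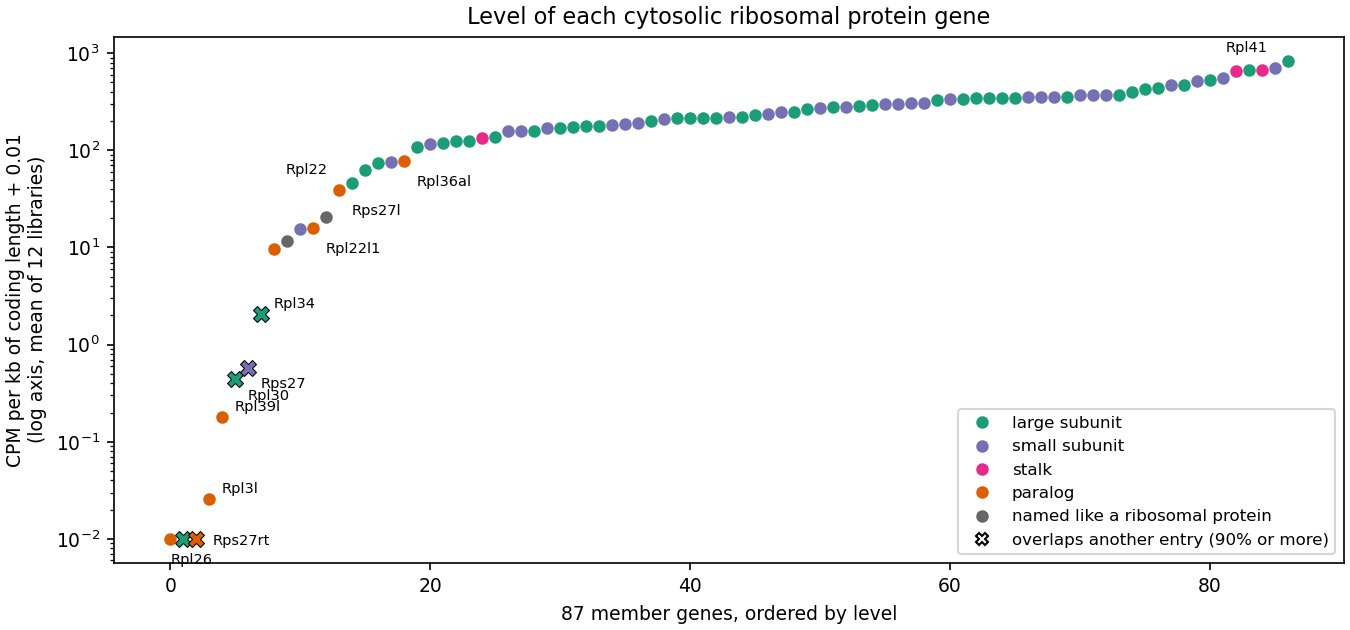
Mean level of each of the 87 ribosomal protein genes over 12 libraries, in CPM per kb of coding length plus 0.01 on a log axis, ordered from lowest to highest and coloured by role; crosses mark genes that overlap another entry over at least 90% of both spans. The lowest core genes (Rpl26, Rpl30, Rps27 and Rpl34) all carry a cross, and Rpl41 is the highest at 837 CPM per kb.

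Expression filtering kept 80 of the 87 genes for testing; Rpl26, Rpl10l, Rpl30, Rpl39l, Rpl3l, Rps27 and Rps27rt were not kept. In WT, the comparison of 48 h with 0 h covers the whole capsule sample, whose cell type markers also changed, as given above. Of the 80 genes, 6 rose and 0 fell (edgeR quasi-likelihood test, Benjamini-Hochberg adjusted over 14560 genes). That is fewer than among all tested genes, of which 32.6% were called, 19.1% as higher. The shift over the 80 genes was small and mostly one-directional: 77 had a positive log2 change, against 50.8% of all genes, and the median was 0.35, against 0.02 for all genes. Genes of the set share libraries, so sign counts over the set, here and below, are not counts of independent observations. At an unadjusted p under 0.05, 11 of the 80 stood out, against 43.5% of all genes. In 23 of the 80 the 0 h and 48 h libraries were fully separated, 22 of them higher at 48 h, while 51.5% of all genes did not overlap and 27.5% were higher without overlap.

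Rpl22l1 had the largest change of the 80 genes in WT. It measured 5.62, 4.999 and 3.01 CPM at 0 h and 7.61, 9.62 and 10.4 CPM at 48 h, so that each 48 h library exceeded each 0 h library. The log2 change was 1.01 ± 0.34 (SE; edgeR adjusted p = 0.0345). Rpl36al, a paralog of the X-linked Rpl36a, rose from 26.9, 23.2 and 27.7 CPM to 51.8, 50.1 and 40.2 CPM, again without overlap, by 0.87 ± 0.26 (edgeR adjusted p = 0.0206). Rps27l, a paralog of Rps27 known as a p53 target, was at 13.04, 9.59 and 12.3 CPM at 0 h and 23.7, 17.4 and 21.6 CPM at 48 h, an increase of 0.84 ± 0.30 (edgeR adjusted p = 0.0472). Paralogs thus made up 3 of the 6 genes called, out of 4 paralogs tested, while 19.1% of all genes were called higher. The call was lost in 6 of 20 alternatives for Rpl22l1, in 2 for Rpl36al and in 10 for Rps27l.

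The other genes that rose were Rps16, Rpsa and Rpl7l1. Rps16, a core protein of the small subunit, went from 145, 96.7 and 95.3 CPM to 213, 199 and 181 CPM (log2 change 0.82 ± 0.24, edgeR adjusted p = 0.0204). Rpsa, with the values given above, rose by 0.78 ± 0.28 (edgeR adjusted p = 0.0487). Rpl7l1, named for its likeness to Rpl7 but known as a factor in the assembly of the large subunit, went from 45.4, 35.8 and 39.4 CPM to 65.3, 54.9 and 62.1 CPM (0.60 ± 0.17, edgeR adjusted p = 0.0150). In none of these 3 genes did the times overlap. The call was lost in 3 of 20 alternatives for Rps16, in 10 for Rpsa and in 3 for Rpl7l1.

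At the other end stood Rpl22, the core large subunit protein that binds RNA and is the partner of Rpl22l1. It measured 135, 100.5 and 115 CPM in WT at 0 h and 94.5, 87.6 and 92.1 CPM at 48 h, with no overlap, but its log2 change of −0.35 ± 0.18 did not pass the test (edgeR adjusted p = 0.147). Rpl7 followed at −0.27 ± 0.22 (edgeR adjusted p = 0.376). Rps7 and Rpl5 came next, at −0.01 and 0.03. Rpl5 and Rpl11, which bind the p53 regulator Mdm2 when ribosome assembly fails, were near the low end of the set, with Rpl11 at 0.08 ± 0.26 (edgeR adjusted p = 0.842). Other genes known for roles beside the ribosome ranged from Rps6, the substrate of S6 kinase, at 0.06 ± 0.24 to Rpl10a at 0.55 ± 0.27 (edgeR adjusted p = 0.863 and 0.127). The stalk genes, whose proteins recruit elongation factors, were at 0.12 ± 0.25 for Rplp0, 0.44 ± 0.29 for Rplp1 and 0.39 ± 0.28 for Rplp2 in WT, and at −0.28 ± 0.25, 0.14 ± 0.29 and 0.06 ± 0.28 in FNcKO, none of them called.

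The WT count depended on single libraries. It fell to 0 when WT 0 h replicate 2 was left out, to 1 when either WT 0 h replicate 3 or WT 48 h replicate 1 was, and to 3 when WT 48 h replicate 3 was. Leaving out FNcKO 0 h replicate 3, which enters through the shared scaling and estimate of the spread, raised it to 12, of which 11 were higher and 1, Rpl22, was lower (log2 change −0.37, edgeR adjusted p = 0.0430). With total counts as the scale, 27 genes were called, all higher, and the median of all genes moved with it to 0.23.

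To see which genes departed from the rest of the set, libraries were also scaled to the median ratio over the 80 genes themselves. In WT, 1 gene was called on this scale, Rpl22, which fell by 0.71 ± 0.24 on the log2 scale (edgeR adjusted p = 0.0466). Of all genes, 22.1% were called, 13.4% as lower. The call of Rpl22 was lost in 13 of 17 alternatives, and over all settings its adjusted p ranged from 0.0108 to 0.148. Rpl22l1 was at 0.67 ± 0.34 on this scale and did not pass (edgeR adjusted p = 0.158).

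In FNcKO, 1 gene rose and 2 fell between 0 h and 48 h, 3 of 80, against 24.8% of all genes (edgeR, adjusted p under 0.05; 14.9% higher and 9.9% lower). The median log2 change of the 80 genes was −0.15, against 0.00 for all genes, with 59 negative and 21 positive values (50.1% of all genes positive), but the sign rested on the scale and on 1 library: the median was 0.19 with total counts (all genes 0.29) and 0.16 without FNcKO 0 h replicate 3. In 4 of the 80 genes the times did not overlap (Rpl7, Rpl22 and Rps7 lower, Rpl7l1 higher), against 37.5% of all genes. At an unadjusted p under 0.05, 5 of 80 stood out, against 37.2% of all genes.

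Rpl22 fell in FNcKO. It was at 132, 133 and 203 CPM at 0 h and at 98.8, 93.5 and 104 CPM at 48 h, a log2 change of −0.66 ± 0.18 (edgeR adjusted p = 0.0173). Rpl7, a core large subunit protein, fell from 731, 709 and 1170 CPM to 469, 554 and 545 CPM, by 0.73 ± 0.22 on the log2 scale (edgeR adjusted p = 0.0286). FNcKO 0 h replicate 3 held the highest value of both genes, and without it their changes were −0.46 and −0.50 (edgeR adjusted p = 0.0375 and 0.0732). Rpl7l1 rose from 42.4, 47.1 and 47.2 CPM to 54.1, 63.0 and 79.3 CPM (0.52 ± 0.17, edgeR adjusted p = 0.0345). The count of called genes dropped to 0 when FNcKO 48 h replicate 2 was left out, and to 1 when either replicate 3 library of FNcKO (0 h or 48 h) was.

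Rps19bp1, which codes for a nuclear binding partner of Rps19 and is no ribosomal protein, had the highest change in FNcKO. Its 0 h libraries were at 7.83, 4.04 and 9.75 CPM and its 48 h libraries at 9.19, 16.4 and 16.6 CPM, so the times overlapped. The log2 change of 0.97 ± 0.36 missed the threshold (edgeR adjusted p = 0.0679), and relative to the set it was 1.07 ± 0.33 (edgeR adjusted p = 0.0430; 13% of all genes called, 10.5% as higher), a call lost in 11 of 17 alternatives. The paralogs that rose in WT had FNcKO changes of 0.17 ± 0.33 for Rpl22l1, 0.02 ± 0.26 for Rpl36al and 0.15 ± 0.30 for Rps27l, with edgeR adjusted p of 0.757, 0.963 and 0.760. Rpsa was at 0.48 ± 0.28 (edgeR adjusted p = 0.231) and Rps16 at 0.23 ± 0.24 (edgeR adjusted p = 0.526).

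**Figure D3:**
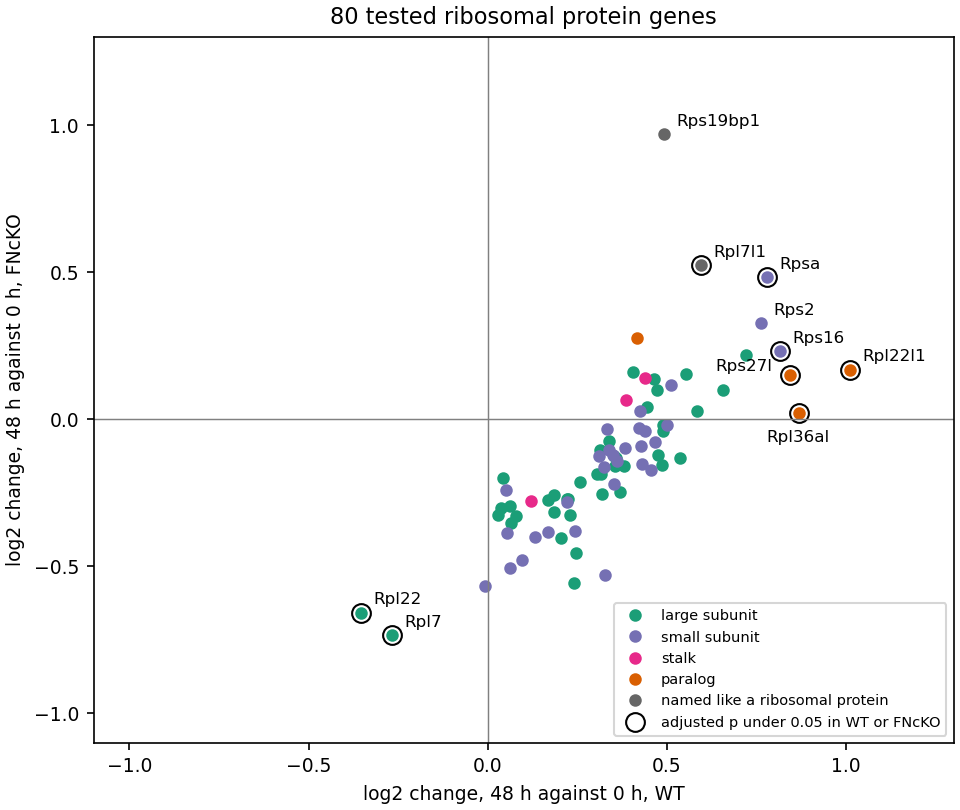
Log2 change from 0 h to 48 h of the 80 tested ribosomal protein genes in WT (horizontal) and in FNcKO (vertical), coloured by role. Rings mark genes with an edgeR adjusted p under 0.05 in either genotype; Rpl22 and Rpl7 lie lowest on both axes and Rpl22l1 has the highest WT change, 1.01.

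The ratio of 2 genes within a library does not depend on how libraries are scaled. Of 8 paralog pairs, 4 had both genes tested, counting Rpl7l1 with Rpl7. Rpl22l1 counts were 4.17%, 4.97% and 2.62% of Rpl22 counts in WT at 0 h and 8.06%, 10.99% and 11.3% at 48 h. In FNcKO they were 5.33%, 4.08% and 5.37% at 0 h and 7.17%, 8.64% and 10.6% at 48 h. All 6 libraries at 48 h lay above all 6 at 0 h. The log2 ratio rose by 1.11 (1.39 in WT, 0.82 in FNcKO; exact permutation of times within genotype, two-sided p = 0.005, the smallest that its 400 arrangements can give, adjusted p = 0.00667 over 4 pairs).

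Rpl7l1 counts as a share of Rpl7 counts were 6.20%, 7.10% and 6.75% in WT at 0 h and 12.9%, 10.3% and 13.1% at 48 h, and 5.79%, 6.64% and 4.03% against 11.5%, 11.4% and 14.5% in FNcKO. Again the times did not overlap, and the log2 ratio rose by 1.03 (0.85 in WT, 1.21 in FNcKO; exact permutation p = 0.005, adjusted 0.00667). The Rpl36al share of Rpl36a moved less, from 51.7%, 63.1% and 63.4% to 77.4%, 74.7% and 69.1% in WT and from 53.7%, 58.4% and 63.5% to 64.7%, 67.1% and 66.4% in FNcKO. Its log2 ratio rose by 0.25 (0.32 in WT, 0.18 in FNcKO; exact permutation p = 0.005, adjusted 0.00667). For Rps4l over Rps4x the change was 0.13 with overlapping times (exact permutation p = 0.67). Rps4l counts stood at 1.09% to 2.83% of Rps4x counts over the 12 libraries.

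Separation of this kind was not rare within the set. Among all 3160 pairs of tested ribosomal protein genes, 23.7% had count ratios that did not overlap between the times in the same direction in both genotypes. The calls of the 3 pairs, Rpl7l1 with Rpl7 among them, held in all 14 alternatives, and their adjusted exact permutation p ranged from 0.00667 to 0.0133. The alternatives left out libraries or changed the pseudocount. Leaving out libraries cannot undo a full separation, so p stayed at the smallest possible value, and these alternatives do not measure how stable the calls are. Whether the Rpl22l1 to Rpl22 shift differed between the genotypes was not tested.

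**Figure D4:**
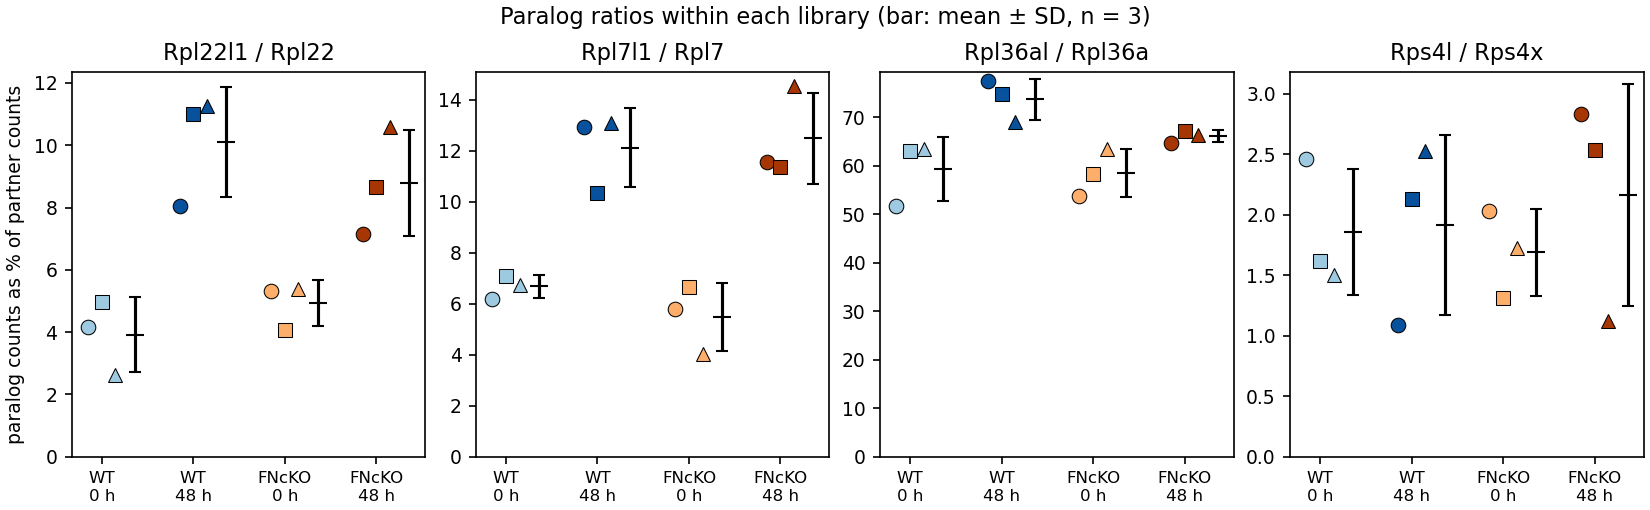
Counts of the paralog as a percentage of its partner's counts in each library, for the 4 testable pairs, counting Rpl7l1 with Rpl7. Circles, squares and triangles are replicates 1, 2 and 3, and bars give the mean ± SD (n = 3). For Rpl22l1, Rpl7l1 and Rpl36al the 48 h libraries lie above the 0 h libraries in both genotypes, while Rps4l overlaps.

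Between the genotypes, 0 of the 80 genes were called at 48 h, where 0.24% of all genes were (edgeR), and 0 had an unadjusted p under 0.05, against 5.47% of all genes. DESeq2 also called 0. The median log2 difference, FNcKO over WT, was 0.08 (all genes 0.01), with 67 of the 80 positive, against 52% of all genes, and the values ran from −0.24 for Rpl34 to 0.49 ± 0.36 for Rps19bp1. Rpl34, with 4 to 24 counts per library, is among the overlapping genes whose low counts are no measure of expression. Without FNcKO 48 h replicate 3 the median was −0.07. Rpl22l1 differed by −0.08 ± 0.33 and Rpl22 by 0.11 ± 0.18. At 0 h, 0 of 80 were called as well (0.144% of all genes), yet all 80 had a positive log2 difference, against 51.2% of all genes, with a median of 0.57 (all genes 0.01). At an unadjusted p under 0.05, 47 of the 80 stood out, against 11% of all genes. DESeq2 called 0 and had 53 at an unadjusted p under 0.05. These counts are not independent observations either, as the genes share the same libraries. The set's level per library was taken as the median log2 deviation of its genes from their means over 12 libraries. At 0 h it was 0.01, −0.55 and −0.45 in WT and −0.07, −0.06 and 0.75 in FNcKO. FNcKO 0 h replicates 1 and 2 thus lay below WT 0 h replicate 1.

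Rps26, a core small subunit protein at the mRNA exit channel, had the highest genotype difference at 0 h. It measured 115, 81.8 and 108 CPM in WT and 161, 127 and 276 CPM in FNcKO without overlap (log2 difference 0.88 ± 0.26, edgeR adjusted p = 0.311, the smallest of the 80). Rpl39, Rpl22l1, Rpl38 and Rps28 followed at 0.78, 0.77, 0.75 and 0.75. On the TMM scale the sum of the lens epithelium markers was likewise higher in FNcKO at 0 h (7843 to 8806 CPM, against 5420 to 7181 in WT). As a share of counts the genotypes overlapped in that sum, and its part in the result was not tested. The lowest were Rps19bp1 at 0.01 and Rpl7l1 at 0.18. In 12 genes the groups did not overlap, against 16.6% of all genes, and all 12 were higher in FNcKO, against 8.68%. FNcKO 0 h replicate 3 held the highest summed level, and without it the median difference was 0.23 and that of Rps26 was 0.51 (edgeR adjusted p = 0.868). Without the pair of 0 h replicate 1 libraries, whose columns conflict in a second deposited table, it was 0.91.

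The difference of the 48 h responses, FNcKO minus WT, was negative in 79 of 80 genes, against 49.1% of all genes with a positive value, with a median of −0.49 (all genes −0.01). None was called, 0 of 80, as for all genes (0% of 14560, edgeR), with a smallest adjusted p of 0.945, and 2 had an unadjusted p under 0.05, against 5.05% of all genes. DESeq2 gave the same counts, 0 and 2. The median was −0.15 without FNcKO 0 h replicate 3 and −0.83 without both 0 h replicate 1 libraries. This difference holds the same 0 h libraries as the genotype comparison at 0 h, so the pair of results is not independent.

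Other genes of the translation machinery, from fixed lists, moved as follows over time. Ribosome biogenesis genes, which make rRNA and assemble the subunits, rose most often: of 77 tested, 32 rose and 1 fell in WT, and 21 rose and 1 fell in FNcKO, with medians of 0.48 and 0.44. Among all genes 19.1% rose and 13.5% fell in WT, 14.9% and 9.9% in FNcKO, with medians of 0.02 and 0.00. Npm1, a nucleolar chaperone, rose from 104 ± 10.99 to 348 ± 97.5 CPM in WT (SD, n = 3; log2 change 1.74 ± 0.32, edgeR adjusted p = 0.00157) and by 1.38 ± 0.32 in FNcKO (edgeR adjusted p = 0.0075). Gar1, of the pseudouridylation complex that modifies rRNA, rose by 1.51 ± 0.38 and 1.53 ± 0.38. Gnl2, a nucleolar GTPase, fell by 0.50 ± 0.14 in WT and by 0.48 ± 0.14 in FNcKO.

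Of 77 mitochondrial ribosomal protein genes, 14 rose and 0 fell in WT (median 0.33), and 2 rose and 1 fell in FNcKO (median 0.04). Among all genes, 19.1% rose and 13.5% fell in WT, and 14.9% rose and 9.9% fell in FNcKO. The mitochondrial genes thus rose about as often as all genes in WT and less often in FNcKO. Mrps18b rose in both, by 1.14 ± 0.25 and 0.88 ± 0.24, Mrpl33 rose in WT by 1.27 ± 0.33, and Mrpl27 fell in FNcKO by 0.66 ± 0.22. Of 38 translation factors and other TOP mRNAs, 8 rose and 1 fell in WT (median 0.32) and 4 rose and 1 fell in FNcKO (median 0.04). Their rises were also near the share of all genes in WT and below it in FNcKO. Eif6, which keeps the large subunit from joining too early, rose by 1.17 ± 0.24 and 0.98 ± 0.24. The helicase genes Eif4a1 and Eif4a2 moved apart: Eif4a1 rose by 1.01 ± 0.23 and 0.71 ± 0.22, and Eif4a2 fell by 0.93 ± 0.23 and by 1.14 ± 0.23, in WT and FNcKO. Fau and Gnb2l1, which code for core ribosomal proteins under other names, had WT changes of 0.54 and 0.59 and FNcKO changes of 0.05 and 0.06, and neither was called.

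Of 26 genes that control ribosomal protein synthesis, 6 rose and 4 fell in WT and 5 rose and 2 fell in FNcKO. Among all genes, 19.1% rose and 13.5% fell in WT, and 14.9% rose and 9.9% fell in FNcKO. Myc, which drives transcription of ribosome genes, rose from 5.27 ± 2.00 to 29.9 ± 4.12 CPM in WT and from 8.23 ± 3.07 to 38.8 ± 21.1 CPM in FNcKO (SD, n = 3; log2 changes 2.50 ± 0.44 and 2.23 ± 0.43). Cdkn1a, a p53 target that halts the cell cycle, rose by 4.74 ± 0.46 and 3.98 ± 0.43, and Eif4ebp1, the inhibitor of cap-dependent translation that mTOR switches off, by 2.43 ± 0.29 and 1.52 ± 0.28. Mtor itself fell from 518 ± 136 to 217 ± 48.2 CPM in WT and from 725 ± 70.1 to 322 ± 96.8 CPM in FNcKO, and Sesn1, which restrains mTOR, fell by 1.41 ± 0.21 and 1.59 ± 0.21. Of the other sestrin genes, Sesn3 fell in WT by 1.80 ± 0.44, whereas Sesn2 went the other way, with log2 changes of 0.94 in WT and 1.16 in FNcKO. Of 9 snoRNA host genes (Rpl13a and Rps12 among them), 0 rose and 1 fell in each genotype, Snhg8 in WT by 1.53 ± 0.50 and Gas5 in FNcKO by 0.96 ± 0.24. No gene of these lists was called between genotypes at either time.

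**Figure D5:**
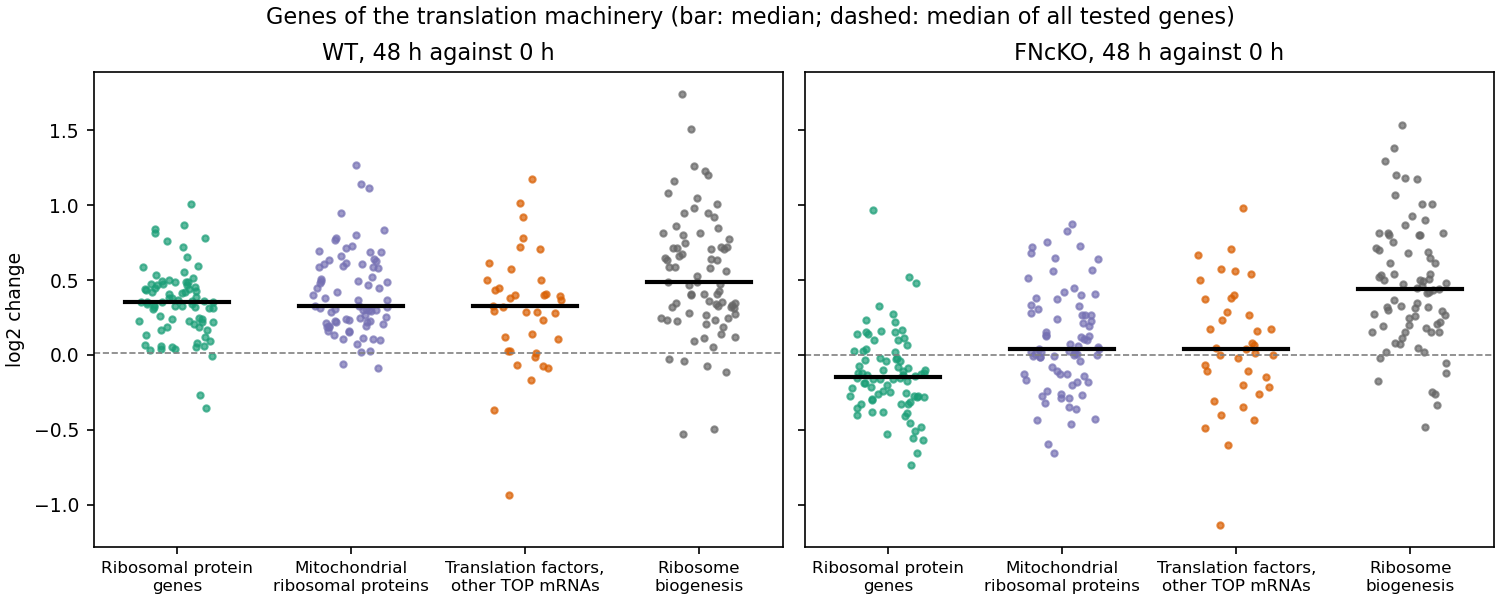
Log2 change from 0 h to 48 h of each tested gene in 4 groups of the translation machinery, in WT (left) and FNcKO (right). Solid bars are medians and the dashed line is the median of all tested genes; biogenesis genes have the highest medians (0.48 and 0.44), and ribosomal protein genes are at 0.35 in WT and −0.15 in FNcKO.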

How the data were processed

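The authors deposited whole-number read counts for 24147 genes in 12 libraries, with gene coordinates and coding lengths, per the file headers. The deposited RPKM values equal count over coding length and library total, and were not tested. The tools named in the submitters' processing notes are HTSeq 0.6.1p1, TopHat2 2.1.0, Trim Galore 0.4.4, FastQC, SAMtools 1.4, bedtools 2.17 and edgeR 3.16.5, with build mm10. The annotation, the strand setting and the handling of multiply matching or overlapping reads were not stated there. Counts were fitted in edgeR 4.0.16 (R 4.3.3): filterByExpr kept 14560 genes, TMM scaling, 4 group means over all 12 libraries, robust quasi-likelihood tests, Benjamini-Hochberg adjustment over all tested genes, threshold 0.05. Libraries held 8368160 to 10862573 counts, and the limit given for a count of 0 covers counting error only, while ± values include the spread between libraries. A second fit scaled libraries to the 80 tested ribosomal protein genes. Paralog ratios used counts plus 0.5.

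Named genes were the paralog pairs, stalk and multi-role genes, called genes, the extremes of each comparison and of the level per kb, and the largest called changes of fixed lists. The members and lists were chosen with earlier results of these data known. Scripts were tested on simulated data. Alternatives were other scalings, no filter, DESeq2 1.42.0, a replicate block and leaving out libraries. No pair of libraries was identical. In a deposited combined table with 9 columns, the column named for WT 0 h replicate 1 equals FNcKO 0 h replicate 1 in every gene; the single-library files were used, and leaving out both libraries is an alternative. Start regions are RefSeq, GRCm38.p6.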

Additional observations from a re-analysis of the deposited data

How the results depend on the processing

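The positive WT median over time kept its sign in all 20 alternatives (0.22 to 0.58), and the median genotype difference at 0 h did as well (0.23 to 0.91). The FNcKO median over time moved to 0.19 with total counts, and the genotype median at 48 h ran from −0.07 to 0.21. Without FNcKO 0 h replicate 3 the 0 h genotype median was 0.23 and the median difference of responses −0.15; without both 0 h replicate 1 libraries they were 0.91 and −0.83, and over single libraries left out they ran up to 0.78 and down to −0.70. Called WT genes numbered 27 with total counts and 0 to 12 when single libraries were left out; in FNcKO they numbered 1 with the replicate block and 0 to 3 when single libraries were left out. Relative to the set, the WT count was 3 with DESeq2, 0 when scaled to summed counts, 0 without a filter, 0 with the replicate block, 0 without both 0 h replicate 1 libraries and 0 to 2 when single libraries were left out; the FNcKO count was 3 with DESeq2, 0 without a filter, 0 with the replicate block and 0 to 1 when single libraries were left out. The causes were not tested. The FNcKO shift in the Rps to Rpl count ratio was −0.0031 without Rpsa and Rps2, an alternative added after seeing the data. In FNcKO, changes near 0 turned sign when single libraries were left out: Rpl22l1 ran from −0.037 to 0.44, Rpl36al from −0.20 to 0.34 and Rps27l from −0.18 to 0.46. Without both 0 h replicate 1 libraries, Rpl36al was at −0.20 and Rps27l at −0.058. Replicate numbers did not pair the libraries: correlations of 18 same-numbered pairs ran from −0.50 to 0.32, 4 of them over 0.1, and 3 of 12 libraries correlated best with their own number; the replicate block left 4 WT calls, all among the 6. Genotype comparisons called 0 ribosomal protein genes in every alternative run. Depth limits the rarest genes: a count of 0 allows up to 0.430 CPM.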
